A study of Sus scrofa with 16 samples.

Results

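Nuclear receptors are transcription factors whose activity is set by small fat-soluble molecules, and in the liver they tie the supply of fatty acids, sterols, bile acids and foreign compounds to the genes that handle them. Many of them bind DNA as pairs with a retinoid X receptor, of which RXRA is the main form in hepatocytes. PPARA responds to fatty acids and governs their oxidation, NR1H3 and NR1H2 (LXR alpha and beta) respond to oxidized cholesterol, NR1I2 and NR1I3 (PXR and CAR) respond to drugs and other foreign compounds, and HNF4A keeps up the gene program of the hepatocyte. NR5A2 (LRH-1) takes part in bile acid and cholesterol metabolism, ESRRA acts with the coactivator PGC-1alpha on mitochondrial genes, and NR2F2 (COUP-TFII) is an orphan receptor of vessels, stroma and metabolic tissues. These 10 genes were picked by their annotated pig symbols from the 25880 gene identifiers common to the 16 count files, and each of the 10 symbols was found under 1 identifier.

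The livers came from 16 crossbred pigs fattened from 60 to 118 kg on isoenergetic feed mixtures that differed in the added fat. Group R received rapeseed oil (5 pigs, 3 of them gilts, that is young females), group B beef tallow (5 pigs, 2 gilts) and group C coconut oil (6 pigs, 3 gilts), and the other pigs of each group were barrows, that is castrated males. Each library held the RNA of 1 pig, and no group went without added fat, so group R served as the reference for the other diets. The age of the pigs was not given in the sources used here, and the authors had left out libraries of low sequencing quality before these counts were made.

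The libraries were built from the 3′ ends of polyadenylated RNA, which gives 1 fragment per transcript, so the counts take no division by transcript length. Levels of different genes are still compared only as reads on the annotated gene, since a 3′ end missing from the annotation lowers the count. SERPINA1, a major transcript of liver, had a mean of 0.30 CPM, and BAAT, of bile acid conjugation, had 0 reads; both are named after their values were seen. Reads counted on genes ranged from 801172 to 1425550 in group R, from 879114 to 1490944 in group B and from 705669 to 1767671 in group C. Levels are given in CPM after TMM normalization over the 16 pigs, and pooled reads in RPM without it. Means are followed by the SD over pigs, and SE marks the standard error of each fold change on the log2 scale. A count of 0 in a library still allows up to 3 reads, which is 1.70 to 4.25 RPM depending on the pig. Such limits and intervals cover counting error only, since the reads carry no molecular identifiers.

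The labelled tissue was checked against marker genes of liver cells. Of 10 hepatocyte markers, 9 had reads in every pig, and their summed level ran from 85322 to 217346 CPM with albumin (ALB) as the most abundant at 87391 CPM. Markers of Kupffer cells, the macrophages of the liver, summed to between 603 and 1669 CPM, those of sinusoidal endothelium to between 358 and 565 CPM and those of stellate cells and fibroblasts to between 338 and 879 CPM. Markers of bile duct cells stayed at or below 33.5 CPM in sum, and none of them had reads in all pigs. Erythroid markers summed to between 498 and 4876 CPM, with HBB as the most abundant at 2439 CPM, and differed widely between pigs. Those of T and NK cells summed to between 12.6 and 37.9 CPM and those of B and plasma cells to between 4.35 and 53.5 CPM. In bulk tissue, fewer cells of a type and less RNA per cell cannot be told apart.

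Pig 3 of group B stood apart from the other 15 pigs on the first principal component (19.3% of the variance), where it lay at 62.6 and the next pig at 18.6. It also had the lowest sum of hepatocyte markers (85322 CPM, next 118451 CPM) and the highest of Kupffer cell markers (1669 CPM, next 1144 CPM). For none of the 6 tested receptors was this pig the highest or the lowest of its diet. Receptor comparisons with group B are therefore given with and without it.

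The 10 receptors fell into 2 sets that were far apart in read number. HNF4A, RXRA, NR5A2, NR2F2, NR1I2 and NR1H2 had at least 10 reads in each of the 16 pigs. NR1H3, PPARA, NR1I3 and ESRRA had no pig with as many as 10 reads, and in none of these 4 genes did any library hold more than 3. The filter on low counts kept the first 6 for testing in every comparison and left out the other 4, so that diet differences could be tested for 6 of 10 receptors.

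**Figure D1:**
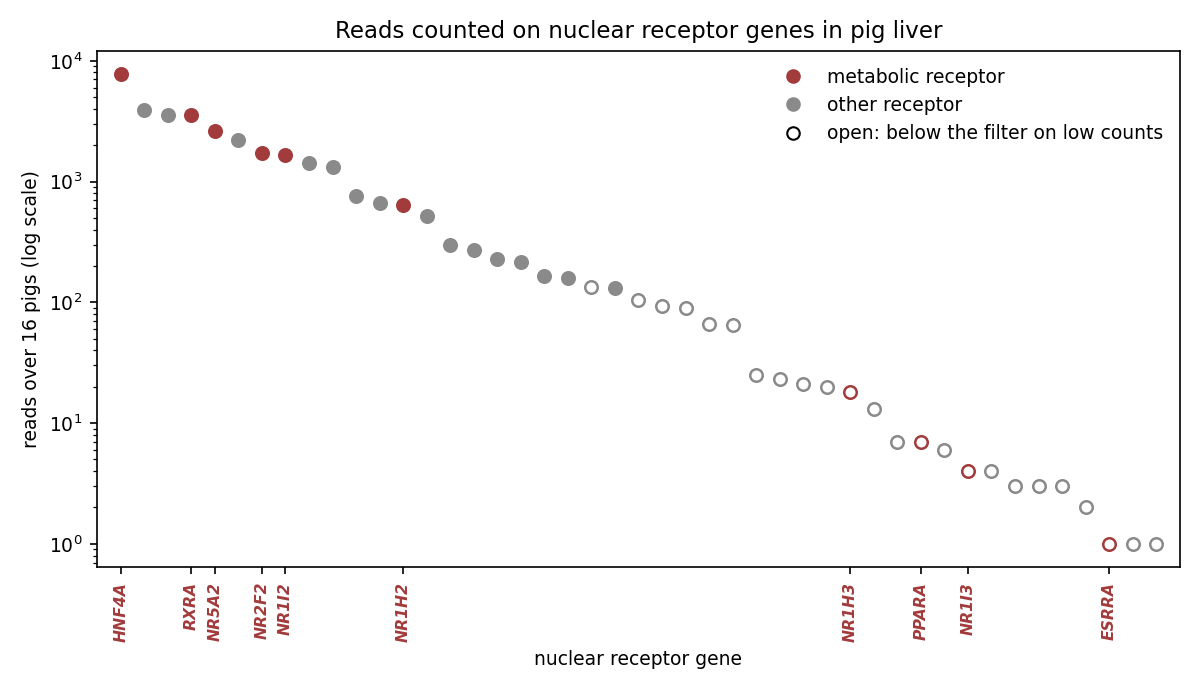
Reads counted on each nuclear receptor gene, summed over 16 pigs, on a logarithmic vertical axis, with the genes in descending order along the horizontal axis, where the 10 metabolic receptors are named. Red points are the 10 metabolic receptors and grey points other nuclear receptors, open points lie below the filter on low counts applied over the 16 pigs, and 3 receptors with 0 reads are not drawn. HNF4A leads with 7736 reads, whereas PPARA has 7 and ESRRA 1.

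PPARA, the fatty acid receptor, received 7 reads in all, from 5 of the 16 pigs. Pooled over the pigs this is 0.384 RPM, with a 95% exact Poisson interval from 0.154 to 0.791. In group R all 5 pigs had 0 PPARA reads, and 0 of 5246422 reads allows a level of up to 0.572 RPM in that group. In group B the pigs had 1, 0, 1, 0 and 3 reads, and in group C 2 of 6 pigs had 1 read each. The few PPARA reads thus came from groups B and C, but at 5 and 2 reads per group no fold change between diets could be measured at this depth.

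NR1H3, the LXR form that is known to predominate in liver, was at 18 reads from 13 pigs, a pooled level of 0.987 RPM (95% exact Poisson interval 0.585 to 1.56). Its pigs held 3, 1, 1, 2 and 0 reads in group R and 1, 2, 1, 0 and 1 in group B, while in group C the counts ran from 0 to 2. No diet stood out, and the ranges of the 3 diets overlapped. NR1I3 had 4 reads from 4 pigs (0.219 RPM, interval 0.0598 to 0.562), 1 each in group R and group B and 2 in group C. ESRRA had 1 read in the whole series, in pig 1 of group B (0.0548 RPM, interval 0.00139 to 0.306). A level this low is a statement about reads counted on the annotated gene. Between 15.9% and 30.1% of the reads per pig lay outside every annotated gene and 15.4% to 38.1% aligned to several places, and whether any of them came from these 4 receptors was not tested.

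Among the 6 tested receptors, HNF4A (ENSSSCG00000007371, chromosome 17 from 46783772 to 46847505 on Sscrofa11.1) was the most abundant, at 420 ± 129 CPM over the 16 pigs. Its level lay above that of 98.1% of the genes with any read. RXRA (ENSSSCG00000038220, chromosome 1 from 273698842 to 273797622) followed at 193 ± 40.9 CPM and NR5A2 (ENSSSCG00000024975, chromosome 10 from 22727865 to 22866905) at 146 ± 26.2 CPM. NR2F2 (ENSSSCG00000002254, chromosome 7 from 83076119 to 83090250) and NR1I2 (ENSSSCG00000011890, chromosome 13 from 140373571 to 140406129) came next, at 94.7 ± 16.5 and 94.6 ± 26.5 CPM. NR1H2 (ENSSSCG00000003211, chromosome 6 from 55238536 to 55245457), the LXR form found in most tissues, was lowest of the 6 at 34.6 ± 7.18 CPM, and its mean count was 34.7 times that of NR1H3, a ratio of reads on the annotated genes.

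The order of these levels held in most pigs but not for every pair of neighbours. HNF4A exceeded RXRA in 15 of 16 pigs and by 2.18-fold in the mean. RXRA exceeded NR5A2 in 13 pigs and NR5A2 exceeded NR2F2 in all 16. NR2F2 and NR1I2 could not be put in order, since each was the higher one in 8 pigs. NR1I2 exceeded NR1H2 in all 16 pigs, by 2.74-fold in the mean.

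The receptors also differed in how evenly they were expressed across pigs. HNF4A varied most among the 6, with a coefficient of variation of 30.8% against 4.71% from counting alone, and its highest pig was 2.94 times its lowest. NR1I2 came next at 28.0% (counting 10.2%), with a 2.55-fold range. With counting error included, NR2F2 and NR5A2 had the lowest coefficients of variation, at 17.4% and 17.9%, where counting alone gives 9.98% and 8.10%. For NR1H2, with 16 to 69 reads per pig, most of its 20.8% variation was of the size that counting gives by itself, 16.4%.

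Set against the whole receptor family, the 10 genes supplied about as many reads as all the others together. Of 48 nuclear receptor genes found by symbol, 3 had 0 reads (NR2E3, ESR2 and NR5A1) and 21 were kept by the filter over the 16 pigs, 6 of them among the 10 and 15 among the 38 others. The 10 genes took between 47.3% and 57.7% of the family's reads per pig, with a median of 51.4%, and HNF4A alone took 11.7% to 30.5%. The most abundant of the others were RORA, an orphan receptor linked to circadian rhythm and lipid metabolism, at 212 ± 85.5 CPM, and NR2F6 at 193 ± 31.0 CPM. NR1H4 (FXR), the bile acid receptor, was at 78.8 ± 17.3 CPM, and NR0B2 (SHP), a repressor of other receptors, at 42.8 ± 26.1 CPM. Of the other fatty acid receptors, PPARD was at 4.94 ± 2.36 CPM and PPARG had 3 reads in the series, both below the filter. The other retinoid X receptors were far below RXRA, RXRB at 5.11 ± 3.5 CPM and RXRG with 2 reads.

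The comparison of beef tallow with rapeseed oil asked what a more saturated animal fat changes. By edgeR's quasi-likelihood test 0 of the 6 tested receptors passed an adjusted p of 0.05, where 1.11% of all 6318 genes tested did. DESeq2 also called 0 of the 6, against 188 of the 5808 genes to which it gave an adjusted p. At an unadjusted p below 0.05 by edgeR there were 3 receptors, HNF4A and NR1H2 with higher and NR1I2 with lower values in group B. Among all genes 15% had an unadjusted p below 0.05 in this comparison. The count of 3 receptors fell to 1 without pig 3 or 5 of group R or pig 2 or 4 of group B, and to 2 without pig 1 of group R, without pig 1, 3 or 5 of group B, with RLE normalization or with all 16 pigs in 1 fit. Of the fits with 1 pig removed, only those without pig 2 or 4 of group R kept all 3.

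HNF4A stood at 228, 573, 249, 420 and 250 CPM in the pigs of group R and at 559, 476, 500, 450 and 459 CPM in those of group B. Group R was split, with 3 pigs near the bottom of the whole range, pig 4 just below group B and pig 2 above all of it, whereas the pigs of group B lay close together. The groups overlapped through that pig 2 alone, and the SD was 149 CPM in group R and 43.7 CPM in group B. The log2 fold change of HNF4A was 0.51 (SE 0.24, edgeR adjusted p = 0.323), a 1.42-fold difference with a 95% interval from 1.01 to 2.01. Without pig 3 of group B it was 0.50 (edgeR adjusted p = 0.293). With other single pigs removed it ran from 0.39 without pig 1 of group R to 0.77 without pig 2 of group R, the pig that made the overlap (edgeR adjusted p = 0.111).

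NR1H2, the LXR form that was tested, had 29.0, 30.3, 28.0, 36.5 and 25.1 CPM in group R and 39.9, 41.8, 44.5, 46 and 37.0 CPM in group B. All pigs of group B were higher than all pigs of group R, though the nearest pigs of the groups were less than 1 CPM apart. NR1H2 was 1 of the 6 tested receptors without overlap, and 4.57% of all genes tested did not overlap in this comparison. The log2 fold change was 0.49 (SE 0.19, edgeR adjusted p = 0.217), or 1.40-fold with a 95% interval from 1.07 to 1.85. Without pig 3 of group B it was 0.46 (edgeR adjusted p = 0.216).

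NR1I2, the sensor of foreign compounds, had 97.8, 117, 132, 90.2 and 128 CPM in group R and 91.1, 73.1, 70.3, 57.6 and 109 CPM in group B. Most pigs of group B lay below group R, and pigs 1 and 5 of group B reached into its range. Its log2 fold change was -0.49 (SE 0.20, edgeR adjusted p = 0.251), a ratio of 0.710 with a 95% interval from 0.530 to 0.953. Without pig 3 of group B it was -0.45 (edgeR adjusted p = 0.263).

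The other 3 tested receptors had estimates near 0 between these diets. RXRA had 283, 143, 172, 143 and 244 CPM in group R and 157, 240, 201, 197 and 220 CPM in group B. The highest and the lowest pigs were both in group R, so that group B lay wholly inside the span of group R. The log2 fold change of RXRA was 0.04 (SE 0.21, edgeR adjusted p = 0.960), and its 95% interval ran from 0.750-fold to 1.40-fold. NR5A2 was at 151 ± 16 CPM in group R and 149 ± 35.2 CPM in group B, a log2 fold change of -0.03 (SE 0.19, edgeR adjusted p = 0.965). NR2F2 was at 99.6 ± 20.1 and 87.3 ± 11.7 CPM, a log2 fold change of -0.20 (SE 0.19, edgeR adjusted p = 0.659). Without pig 3 of group B the log2 fold changes were 0.04 for RXRA, -0.07 for NR5A2 and -0.19 for NR2F2. The signs of RXRA and NR5A2 turned when single pigs were left out, so no direction can be read for either.

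**Figure D2:**
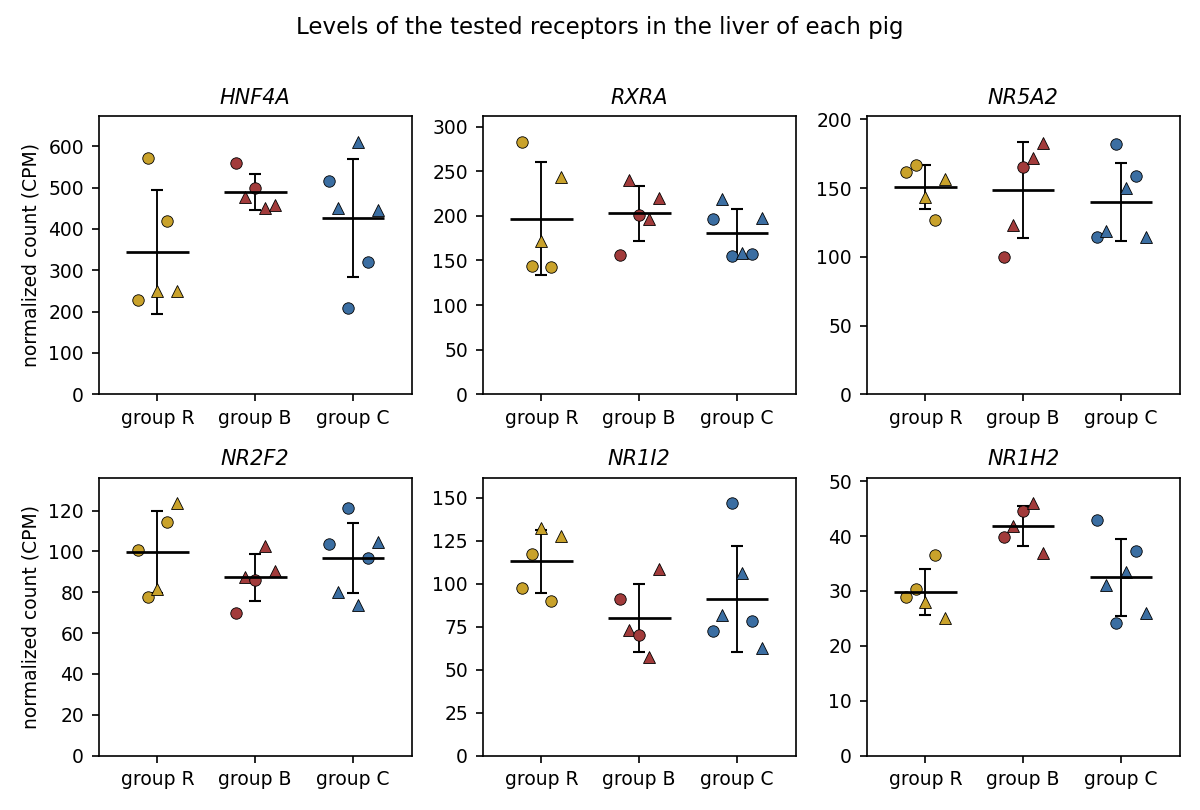
Normalized count (CPM, vertical axis from 0) of each of the 6 tested receptors in every pig, by diet (group R rapeseed oil, group B beef tallow, group C coconut oil). Circles are gilts and triangles barrows, the long line is the mean of the diet and the bar its SD. In NR1H2 the pigs of group B lie above all pigs of group R, and in each other panel groups R and B overlap.

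Between coconut oil and rapeseed oil, the diets farthest apart in saturation, 0 of the 6 tested receptors passed an edgeR adjusted p of 0.05, against 0.138% of 6528 genes. DESeq2 called 0 as well, against 93 of the 3565 genes to which it gave an adjusted p. At an unadjusted p below 0.05 by edgeR there were also 0 receptors, and among all genes there were 847. The count of receptors was 1 without pig 2 of group R and 1 without pig 3 of group C. No receptor was free of overlap between these groups, where 1.46% of genes were. NR1I2 and HNF4A had the largest estimates among the 6. NR1I2 ran from 62.6 to 147 CPM in group C with a median of 80.1 CPM, and its pig 3 lay above all pigs of group R. The mean of NR1I2 was 91.4 CPM in group C against 113 CPM in group R, a log2 fold change of -0.33 (SE 0.20, edgeR adjusted p = 0.514). HNF4A ran from 208 to 611 CPM in group C with a median of 449 CPM, thus both below the lowest and above the highest pig of group R. Its log2 fold change was 0.30 (SE 0.26, edgeR adjusted p = 0.694), with a 95% interval from 0.841-fold to 1.81-fold. With single pigs removed the log2 fold change of HNF4A ran from 0.18 to 0.57 and that of NR1I2 from -0.50 to -0.24. Pig 3 of group C, the lowest pig of the series for HNF4A and the highest for NR1I2, had the fewest reads on genes (705669). It also had the largest share of multiple alignments (38.1%). The other 4 receptors had log2 fold changes from -0.13 for RXRA to 0.13 for NR1H2, with edgeR adjusted p-values from 0.807 to 0.938.

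Between coconut oil and beef tallow, which share the same group B pigs as the first comparison, 0 of the 6 receptors passed an edgeR adjusted p of 0.05, against 0.0587% of 6812 genes. DESeq2 called 0 of the 5 receptors to which it gave an adjusted p, which NR1H2 did not receive. Of all genes it called 53 of 2156. At an unadjusted p below 0.05 by edgeR there were 0 receptors and 780 genes, and the count of receptors was 1 without pig 1 of group C. Again no receptor was free of overlap, where 1.44% of genes were. NR1H2 had the largest estimate, running from 24.3 to 43 CPM in group C with a median of 32.2 CPM. Most pigs of group C lay below the whole of group B, while 1 pig was higher than most of group B and another reached just above its lowest pig. The log2 fold change of NR1H2 was -0.35 (SE 0.19, edgeR adjusted p = 0.478), a ratio of 0.782 with a 95% interval from 0.596 to 1.03, and without pig 3 of group B it was -0.33 (edgeR adjusted p = 0.581). For the other 5 receptors the log2 fold changes lay between -0.20 for HNF4A and 0.17 for NR1I2, with edgeR adjusted p-values from 0.729 to 0.895. Without pig 3 of group B these were -0.19 for HNF4A, -0.16 for RXRA, -0.04 for NR5A2, 0.15 for NR2F2 and 0.12 for NR1I2.

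A single test of any difference among the 3 diets, over all 16 pigs, left 0 of the 6 receptors past an edgeR adjusted p of 0.05, while 0.711% of 6891 genes passed. The smallest edgeR adjusted p belonged to NR1H2, at 0.281, followed by NR1I2 at 0.396 and HNF4A at 0.491. NR1H2 was the 1 receptor with an unadjusted p below 0.05 in this edgeR test, against 15.9% of all genes, and DESeq2 was not run for it. The 95% intervals give the sizes that these pigs leave possible. Over the 3 pairs of diets and the 6 receptors they reached from 0.530-fold to 2.01-fold. A p-value above the threshold does not show that the diets were equal in these receptors.

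**Figure D3:**
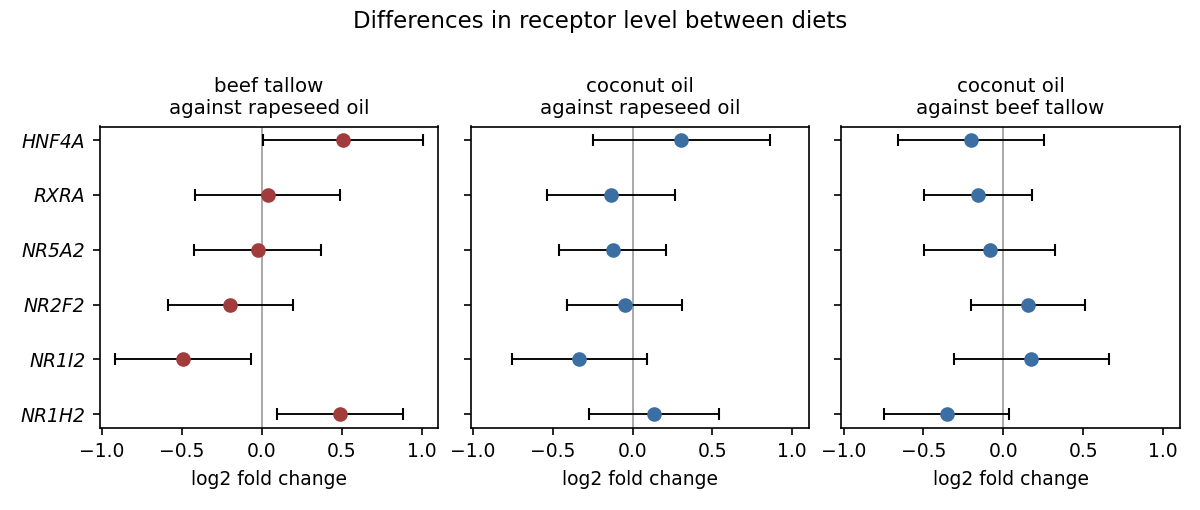
Log2 fold change of the 6 tested receptors (horizontal axis) in each pair of diets, where positive values are higher in the diet named first. Points are the edgeR estimates and bars their 95% intervals. The intervals of HNF4A, NR1I2 and NR1H2 for beef tallow against rapeseed oil lie off 0, and all others include 0.

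The sexes were compared in the same 6 receptors. Between 8 barrows and 8 gilts, 0 of the 6 receptors passed an edgeR adjusted p of 0.05 (0.0786% of 6365 genes did), 0 had an unadjusted p below 0.05 (4.02% of all genes did) and DESeq2 called 0. The largest estimate was that of RXRA, with 206 ± 30.5 CPM in barrows and 179 ± 47.4 CPM in gilts, a log2 fold change of 0.19 (SE 0.16, edgeR adjusted p = 0.998). Between the diets the estimates of RXRA were 0.04, -0.13 and -0.16, and sex and diet differences were not tested against each other. In a test for an interaction between sex and diet, 0 receptors passed an edgeR adjusted p of 0.05, and HNF4A in coconut oil against rapeseed oil was the 1 receptor with an unadjusted p below 0.05, with an interaction of 1.2 on the log2 scale (edgeR adjusted p = 0.997). Among all genes 260 of 6528 had an unadjusted p below 0.05 for that interaction. DESeq2 was not run for the interaction.

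Most of the listed genes that PPARA is known to regulate could be tested although PPARA itself could not. Of 24 listed genes of fatty acid uptake, oxidation and ketone synthesis, 21 could be matched by symbol and 18 were tested in each pair of diets. FABP1, which the authors reported as higher with coconut oil than with beef tallow, was among those not matched. In beef tallow against rapeseed oil 1 of the 18 passed (1.11% of all genes did), CPT1A, which encodes the enzyme that admits long-chain fatty acids to the mitochondrion. CPT1A rose from 104 ± 42.6 CPM in group R to 240 ± 40.3 CPM in group B, a log2 fold change of 1.2 (SE 0.25, edgeR adjusted p = 0.0305), and no pig of group B reached down into group R. With 1 pig removed at a time the log2 fold change lay between 1.03 and 1.42, and the call was kept in 2 of 10 fits, those without pig 4 of group R or pig 3 of group B, and it was lost with the replicate block. DESeq2 also called CPT1A alone of the 18, against 188 of 5808 genes in all. The median log2 fold change of the 18 genes was 0.28, against 0.01 over all genes tested.

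Abundant genes of the list did not pass. EHHADH, of peroxisomal oxidation, was at 1237 ± 157 CPM in group R and 1032 ± 222 CPM in group B (edgeR adjusted p = 0.536). ACAA1, the last enzyme of the same pathway, was at 710 ± 93.3 and 577 ± 71.1 CPM (edgeR adjusted p = 0.391). In coconut oil against rapeseed oil 0 of the 18 passed by edgeR, and 3 had an unadjusted p below 0.05 (13.0% of all genes had one). DESeq2 called 1 (93 of 3565 genes in all), CPT1A, whose log2 fold change was 0.92 (SE 0.23, edgeR adjusted p = 0.104). The median was 0.24 there, against 0.00 over all genes. With coconut oil against beef tallow 0 of the 18 passed by edgeR, with 2 at an unadjusted p below 0.05 (11.5% of all genes had one) and a median of 0.06, and DESeq2 called 0 of the 15 to which it gave an adjusted p.

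Of 13 genes that the LXR pair is known to regulate, 6 were tested and 0 passed in any pair of diets by edgeR. DESeq2 called 0 of the 6, 4 and 3 to which it gave an adjusted p in beef tallow against rapeseed oil, coconut oil against rapeseed oil and coconut oil against beef tallow. By edgeR 1 of the 6 had an unadjusted p below 0.05 in each pair (15%, 13.0% and 11.5% of all genes, in that order). APOE, a carrier protein of cholesterol-rich particles, was the most abundant, at 2362 ± 361 CPM in group R, 2061 ± 321 CPM in group B and 2476 ± 391 CPM in group C. SCD, which makes monounsaturated fatty acids, was at 655 ± 255, 422 ± 127 and 552 ± 355 CPM in the same order, and FASN, the fatty acid synthase, at 268 ± 122, 197 ± 120 and 170 ± 105 CPM. The pigs of each diet overlapped with those of the others in all 3 of these genes. For SCD the estimate for group B against group R was -0.64 on the log2 scale (SE 0.26, edgeR adjusted p = 0.260). NR1H2 is the LXR form that could be tested, and SREBF1, a central gene of the list, had 0 reads.

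The targets of PXR and CAR were covered in part, since 7 of 21 listed genes could be matched by symbol and 6 were tested. CYP2A19, a cytochrome P450 of drug metabolism, was the most abundant at 7687 ± 2501 CPM in group R, 6452 ± 2615 CPM in group B and 9017 ± 1787 CPM in group C, and passed in no pair of diets. In beef tallow against rapeseed oil 1 gene passed (1.11% of all genes did) and was lower, THRSP, a gene of fatty acid synthesis that also answers to thyroid hormone and carbohydrate. THRSP fell from 168 ± 96.6 to 44.7 ± 19.8 CPM, a log2 fold change of -1.92 (SE 0.36, edgeR adjusted p = 0.0260), without overlap of the groups. With 1 pig removed at a time it lost the call in 4 of 10 fits (without pig 3 or 5 of group R or pig 1 or 4 of group B), and its values lay between -2.14 and -1.51. SULT2A1, which adds sulfate to steroids and bile acids, was at 400 ± 83.0 and 617 ± 68.2 CPM (edgeR adjusted p = 0.0998), and DESeq2 called it higher in group B. ALAS1, the first enzyme of haem synthesis, was at 61.6 ± 32.6 CPM in group R, 143 ± 79.4 CPM in group B and 175 ± 60.4 CPM in group C. On the log2 scale group C differed from group R by 1.5 (SE 0.30, edgeR adjusted p = 0.0530), which DESeq2 called, and in group B against group R edgeR called ALAS1 higher when pig 3 of group B was left out. In coconut oil against rapeseed oil 0 of the 6 passed by edgeR, with 2 at an unadjusted p below 0.05 (13.0% of all genes had one). DESeq2 called 1 of the 5 to which it gave an adjusted p, against 93 of 3565 genes in all. With coconut oil against beef tallow 0 of the 6 passed by edgeR, with 3 at an unadjusted p below 0.05 (11.5% of all genes had one), and DESeq2 called 0 of 5.

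HNF4A targets were among the most abundant transcripts of the tissue. Of 20 listed genes 16 were tested, with transferrin (TF) at 21514 ± 3655 CPM in group R, 20139 ± 2228 CPM in group B and 16597 ± 3202 CPM in group C. APOA1, the main protein of high-density lipoprotein, followed at 6531 ± 1942, 6703 ± 1643 and 5896 ± 1155 CPM in the same order. TTR, the carrier of thyroid hormone and retinol-binding protein, was the 1 gene of the list that passed in beef tallow against rapeseed oil (1.11% of all genes did). It fell from 6419 ± 935 to 3731 ± 613 CPM, a log2 fold change of -0.78 (SE 0.17, edgeR adjusted p = 0.0426), while the estimate of HNF4A itself was above 0. With 1 pig removed at a time the TTR call was kept in 2 of 10 fits, those without pig 1 or pig 3 of group B, with values from -0.87 to -0.69, and it was lost without the filter, with sex as a covariate and with the replicate number as a block. DESeq2 called TTR and OTC, a urea cycle enzyme named here after its values were seen, both lower in group B (OTC edgeR adjusted p = 0.142). Of all genes DESeq2 called 188 of 5808. The list's median was -0.08, against 0.01 over all genes. In coconut oil against rapeseed oil 0 of the 16 passed by edgeR or DESeq2, with 3 at an unadjusted p below 0.05 (13.0% of all genes had one). With coconut oil against beef tallow 0 passed by edgeR, with 4 at an unadjusted p below 0.05 (11.5% of all genes had one). DESeq2 called 1, TTR, higher in group C, against 53 of 2156 genes in all.

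NR5A2, HNF4A and NR1H4 are each known to act on bile acid genes. In beef tallow against rapeseed oil 2 of the 9 tested genes of the bile acid list passed, both lower in group B, where 1.11% of all genes passed. The 9 include the receptor genes NR1H4 and NR0B2. CYP7A1, the rate-limiting enzyme of bile acid synthesis and a known target of NR5A2, fell from 165 ± 57.7 to 26.8 ± 20.7 CPM, a log2 fold change of -2.63 (SE 0.39, edgeR adjusted p = 0.00677). It kept the call in 10 of 10 fits with 1 pig removed. ABCB11, the pump that exports bile salts from the hepatocyte, fell from 537 ± 109 to 308 ± 44.1 CPM, a log2 fold change of -0.80 (SE 0.18, edgeR adjusted p = 0.0431), and kept the call in 2 of those 10 fits, those without pig 4 of group R or pig 3 of group B, but neither with sex as a covariate nor with the replicate block. DESeq2 called 3 genes of the list in this pair, against 188 of 5808 genes in all. They were CYP7A1, ABCB11 and FGFR4, the hepatic receptor of a gut signal on bile acid synthesis. FGFR4 is named after its values were seen and was lower in group B (edgeR adjusted p = 0.0563). Beside these differences NR5A2 was at a log2 fold change of -0.03 and NR1H4 at 0.11 (SE 0.22, edgeR adjusted p = 0.856), neither of which passed. NR0B2, which represses NR5A2 and HNF4A, was at 38.7 ± 15.3 CPM in group R and 58.8 ± 39.2 CPM in group B (edgeR adjusted p = 0.552). CYP7B1 and CYP27A1, of the alternative route of bile acid synthesis, had edgeR adjusted p-values of 0.657 and 0.728. The list's median log2 fold change was -0.20, against 0.01 over all genes.

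In the other pairs of diets no bile acid gene passed by edgeR. In coconut oil against rapeseed oil 0 of 9 did, with 2 at an unadjusted p below 0.05 (13.0% of all genes had one), and DESeq2 called 0 of the 6 to which it gave an adjusted p. With coconut oil against beef tallow 0 of 9 did, with 4 at an unadjusted p below 0.05 (11.5% of all genes had one). DESeq2 called 2 of 5, CYP7A1 and ABCB11, both higher in group C, against 53 of 2156 genes in all. CYP7A1 ran from 33.2 to 183 CPM in group C with a median of 129 CPM, a log2 fold change of 2.11 against group B (SE 0.46, edgeR adjusted p = 0.131).

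For ESRRA, with 1 read in the series, the 10 tested genes of its target list are what can be described. They are mitochondrial genes and PPARGC1A, the gene of its coactivator. In beef tallow against rapeseed oil 1 passed (1.11% of all genes did), CYCS, the cytochrome c of the respiratory chain. CYCS rose from 99.7 ± 27.0 to 211 ± 48 CPM, a log2 fold change of 1.08 (SE 0.21, edgeR adjusted p = 0.0285), with no overlap of the groups. With 1 pig removed at a time the call was kept in 4 of 10 fits, those without pig 2 or 4 of group R or pig 3 or 5 of group B, and it was lost with the replicate block. DESeq2 also called CYCS alone of the 10, against 188 of 5808 genes in all. FH, of the citric acid cycle, was the most abundant at 227 ± 51.5 CPM in group R and 270 ± 19.9 CPM in group B (edgeR adjusted p = 0.540), and SDHB, of respiratory complex II, was at 163 ± 26.4 and 105 ± 30.7 CPM (edgeR adjusted p = 0.174). The list's median was 0.12, against 0.01 over all genes. In the other pairs 0 of 10 passed by edgeR, with 2 and 1 at an unadjusted p below 0.05 for coconut oil against rapeseed oil and against beef tallow (13.0% and 11.5% of all genes had one), and DESeq2 called 0 of the 10 and 8 to which it gave an adjusted p.

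Coregulators, through which the receptors act on transcription, showed no call by edgeR in any pair of diets. In beef tallow against rapeseed oil 0 of 11 passed, with 3 at an unadjusted p below 0.05 (15% of all genes had one). Of all genes DESeq2 called 188 of 5808, and of the 11 it called 1. That gene was NRIP1, a corepressor named here after its values were seen, at 12.6 ± 3.38 CPM in group R and 25.5 ± 4.51 CPM in group B (log2 fold change 1.04, SE 0.26, edgeR adjusted p = 0.0632). The pigs of group B all lay above those of group R for NRIP1. In the other pairs 0 of 12 passed by edgeR, with 3 and 2 at an unadjusted p below 0.05 for coconut oil against rapeseed oil and against beef tallow (13.0% and 11.5% of all genes had one), and DESeq2 called 0 of the 8 and 4 to which it gave an adjusted p. MED1, the Mediator subunit that receptors bind, was the most abundant at 189 ± 15.4, 150 ± 17.7 and 186 ± 36.8 CPM in groups R, B and C. PPARGC1A (PGC-1alpha), the coactivator of PPARA and ESRRA, was at 77.1 ± 9.85, 116 ± 35.6 and 118 ± 46.7 CPM in the same order, with edgeR adjusted p-values of 0.196 for group B and 0.269 for group C against group R.

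Among the other nuclear receptors 0 passed by edgeR, out of 11 tested in beef tallow against rapeseed oil and 14 in each of the other pairs. DESeq2 called 0 of the 11, 8 and 5 to which it gave an adjusted p in beef tallow against rapeseed oil, coconut oil against rapeseed oil and coconut oil against beef tallow. At an unadjusted p below 0.05 by edgeR there were 3, 2 and 0 in the same order of pairs. Among all genes 15%, 13.0% and 11.5% had one. RORA was at 164 ± 21.4 CPM in group R and 259 ± 103 CPM in group B (edgeR adjusted p = 0.200), where the pigs of group B spanned from 140 to 381 CPM. THRB, a thyroid hormone receptor, was at 37.0 ± 11.07, 23.8 ± 9.39 and 23.6 ± 4.54 CPM in groups R, B and C, with edgeR adjusted p-values of 0.322 and 0.211 for groups B and C against group R.

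Cell type markers were tested in the same way, and 1.11% of all genes passed in beef tallow against rapeseed oil. In beef tallow against rapeseed oil 1 of 7 tested Kupffer cell markers passed, CD163, which rose from 109 ± 18.1 to 187 ± 22.3 CPM (edgeR adjusted p = 0.0414), and 1 of 7 sinusoidal endothelial markers passed, LYVE1, which rose from 32.7 ± 6.04 to 60.1 ± 11.3 CPM (edgeR adjusted p = 0.0495). With 1 pig removed at a time each kept its call in 2 of 10 fits, CD163 without pig 4 of group R or pig 3 of group B and LYVE1 without pig 2 or pig 3 of group B. Both lost it with the replicate block, and LYVE1 also with RLE normalization and with sex as a covariate. Of the 7 sinusoidal endothelial markers 3 had higher and 4 lower estimates in group B, with a median of 0.00 on the log2 scale. DESeq2 also called LYVE1 higher in coconut oil against rapeseed oil, where it did not pass by edgeR (edgeR adjusted p = 0.104). Of 6 tested stellate cell and fibroblast markers 0 passed in beef tallow against rapeseed oil by edgeR or DESeq2, with 5 lower estimates, 1 higher and a median of -0.23. The higher one, ACTA2, was also the 1 with an unadjusted p below 0.05 (edgeR adjusted p = 0.224), against 15% of all genes. RGS5 of that list, which like ACTA2 is named after its values were seen, was below the filter at 22.5 ± 14.4 CPM in group R and 4.00 ± 4.28 CPM in group B, and edgeR called it lower when pig 3 of group B was left out. In that fit 7 stellate cell and fibroblast markers were tested, and their median was -0.52. Of the 7 Kupffer cell markers 6 had higher estimates in group B than in group R, with a median of 0.33, which was 0.08 without pig 3 of group B. In coconut oil against beef tallow 0 of the 7 passed by edgeR, while 6 had lower estimates in group C, 4 of them with an unadjusted p below 0.05 (11.5% of all genes had one), and the median was -0.49, or -0.37 without that pig. Of 9 tested hepatocyte markers 1 passed, the TTR described above. The summed hepatocyte markers had medians of 149467, 135140 and 146386 CPM in groups R, B and C, and those of Kupffer cells 1010, 978 and 663 CPM. C1QA was the most abundant Kupffer cell marker and its level in group C was 340 ± 68.6 CPM, against 532 ± 136 CPM in group R and 590 ± 215 CPM in group B. By edgeR it passed in neither comparison of group C (edgeR adjusted p = 0.145 against group R and 0.210 against group B), while DESeq2 called it lower in both. The part of cell composition in the receptor values was not tested.

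As a description without a test, the genes most like each receptor across the 16 pigs were sought by the mean difference of ranks among 5817 genes with at least 10 reads per pig on average. HNF4A was followed most closely by UMPS, at a mean difference of 1.25 ranks, and DESI1, at 1.75, where the median gene differed by 5.38 ranks. RXRA ran closest to CIR1 and CEP63 (1.75 and 2.12 ranks), NR5A2 to TASOR and C1orf43 (2.38 and 2.62) and NR2F2 to PPP3CB and RNASEH2B (1.5 and 1.88). NR1I2 ran closest to GSTA4, a glutathione transferase, and NPC2, a cholesterol carrier of the lysosome (1.75 and 2.00), and NR1H2 to HIGD1A and TP53INP1 (1.62 for both). Between the receptors themselves the closest pair was HNF4A and NR1H2, at 3.38 ranks.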

How the data were processed

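Liver RNA of 16 pigs was analysed, 1 library of 3′ mRNA tags per pig. The authors used FastQC for quality, FLEXBAR for trimming, TopHat for mapping to Sus scrofa 11.1 and HTSeq-count with the Ensembl 96 annotation, and they deposited unnormalized counts. The 5 tallies of unassigned reads were left out of library sizes. Gene symbols matched 14857 identifiers, and positions come from RefSeq's annotation of Sscrofa11.1, matched by symbol.

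Each comparison of diets used only its own pigs, with no covariate, in edgeR 4.0.16 (quasi-likelihood, TMM, R 4.3.3). Genes were kept by filterByExpr (minimum count 10, minimum total 15), and the Benjamini-Hochberg adjustment ran over all genes tested. The standard error is the log2 fold change divided by the square root of F, and 95% intervals use the t distribution of the fit. Sex and any diet difference were tested over 16 pigs. DESeq2 1.42.0 was the alternative tool, whose own filtering leaves some genes without an adjusted p. The procedure was tested on simulated data.

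The 10 receptors and all gene lists were chosen with earlier results of these data known. Named genes are the 10 receptors, the other nuclear receptors kept by the filter, and of each list the genes past the threshold and the 3 most abundant tested members, along with the 2 genes nearest in rank to each receptor. Some genes that this rule covers are not reported here. Genes outside that rule (NRIP1, OTC, RGS5, ACTA2, SERPINA1, BAAT, FGFR4, PPARD, PPARG, RXRB, RXRG, SREBF1, NR2E3, ESR2 and NR5A1) were chosen after their values were seen. FABP1 was not matched by symbol and is named from the authors' report. Alternatives were DESeq2, RLE normalization, no filter, a joint fit of the 3 diets, a covariate for sex (or for diet, between the sexes), a block for replicate numbers and removal of single pigs; those for the test of any diet difference and for list genes were chosen after seeing the data. Among 120 pairs of libraries 0 were identical. Reads on no annotated gene made up 15.9% to 30.1% per pig, ambiguous ones 3.08% to 4.60% and multiple alignments 15.4% to 38.1%.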

Additional observations from a re-analysis of the deposited data

Results flagged for a closer look

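Among 33 groups of values examined, 4 held a pig far from the others of its diet. All 4 were in receptors below the filter on low counts. PPARA was at 3.26 CPM in pig 5 of group B, from 3 reads, while the other 4 pigs of the group lay between 0 and 0.753 CPM. NR1I3 was at 0.967 CPM in pig 5 of group R and at 1.04 CPM in pig 2 of group B, and ESRRA was at 0.753 CPM in pig 1 of group B. Each of these last 3 values is 1 read in a group whose other pigs had 0 reads. Such a group is flagged by its form alone, so the chance rate of about 1 in 20 groups cannot be set against the 4 flags.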

How the results depend on the processing

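The count of receptors past the threshold was 0 under all 54 alternatives, and all 60 alternative levels (RLE and unnormalized library size) lay within 1 SD of the reported ones. Of the alternative receptor fold changes, 308 kept their sign and 16 changed it, and none passed the threshold. For NR1H2 in coconut oil against beef tallow DESeq2 gave no adjusted p. With sex as a covariate RXRA was at -0.0109 in beef tallow against rapeseed oil, and with diet as a covariate HNF4A was at -0.0747 and NR1I2 at 0.00896 between the sexes. With single pigs removed, the log2 fold change in beef tallow against rapeseed oil ran from 0.39 to 0.77 for HNF4A, from -0.0588 to 0.21 for RXRA and from -0.11 to 0.0893 for NR5A2, in coconut oil against rapeseed oil from -0.23 to 0.0432 for RXRA and from -0.12 to 0.0366 for NR2F2, and in coconut oil against beef tallow from -0.00801 to 0.30 for NR1I2. In coconut oil against rapeseed oil it also ran from 0.18 to 0.57 for HNF4A and from 0.0347 to 0.22 for NR1H2. In coconut oil against beef tallow it ran from -0.33 to -0.0651 for HNF4A and from -0.20 to -0.00726 for NR5A2. The ranges not listed here held no change of sign. The cause of these moves was not tested.

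The number of all genes called moved more. For beef tallow against rapeseed oil it was 70, with DESeq2 188, without the filter 190 and with pigs left out from 9 (without pig 5 of group R) to 149 (without pig 3 of group B). For coconut oil against rapeseed oil it was 9, with DESeq2 93, without the filter 82 and with pigs left out from 3 to 27. For coconut oil against beef tallow it was 4, with DESeq2 53, without the filter 22, with all 16 pigs in 1 fit 8 and with pigs left out from 4 to 9. Between the sexes it was 5, with DESeq2 11 and without the filter 10, and for any diet difference 49, without the filter 190. Of the alternatives for the 8 list genes called, 67 kept the call and 61 lost it, and 0 changed sign.

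Replicate numbers did not pair the pigs, since the correlations of same-numbered pigs ran from -0.24 to 0.14. With the replicate block 35 genes passed in beef tallow against rapeseed oil, 7 in coconut oil against rapeseed oil and 4 in coconut oil against beef tallow, with 0 receptors among them. The block ended the calls of CPT1A, CYCS, CD163, ABCB11, LYVE1 and TTR.

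At this depth 4 of the 10 receptors gave too few reads for any comparison of diets, and the 95% intervals of the other 6 reached 2.01-fold.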
